A study of Homo sapiens and Mus musculus with 30 samples.

Results

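Aminoacyl-tRNA synthetases join each amino acid to its tRNA, and 39 genes for these enzymes and for the scaffolds that hold some of them together were followed across LIN28B levels in 2 cell lines. The genes were chosen by symbol, as 20 enzymes of the cytosol, 16 enzymes of mitochondria (symbols ending in 2) and the scaffolds AIMP1, AIMP2 and EEF1E1. All 39 were found once among the 11342 genes listed for HEK293A, a human embryonic kidney line, among the 41128 listed for NIH3T3, a mouse embryonic fibroblast line, and among the 57820 of the let-7a libraries. LIN28B binds RNA and keeps precursors of let-7 microRNAs from being matured. X0 is described as a knockout of LIN28B, and X1 to X4 are rising levels of a transgene induced with doxycycline at 10 ng/ml in medium with 10% FBS. Whether X0 also received doxycycline is not stated. The NIH3T3 series is said only to follow the HEK293A design, and whether its X0 cells are a knockout is not stated by name. Each line and level has 1 library of total RNA and 1 of RNA from polysomes (mRNA carrying several ribosomes), 20 libraries in all. A further pair came from X0 HEK293A cells transfected with let-7a at 10 nM, and 8 libraries hold small RNA. The design speaks of 2 replicates, and whether the deposited columns pool them is not given. Every p-value thus speaks only of scatter about a line over at most 5 levels in each cell line, which may be technical. The variance of each gene was moderated towards that of all genes.

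In animal cells several cytosolic synthetases sit in one large complex, built on AIMP1, AIMP2 and EEF1E1 and holding the enzymes for aspartate, glutamate and proline (joined in EPRS), isoleucine, lysine, leucine, methionine, glutamine and arginine. The other cytosolic enzymes work outside it, and phenylalanyl-tRNA synthetase is assembled from the catalytic alpha subunit FARSA and the beta subunit FARSB. Mitochondrial synthetases are encoded in the nucleus, made by cytosolic ribosomes and imported, and they charge the tRNAs with which mitochondria translate respiratory chain proteins. GARS and KARS each supply both compartments.

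Abundance is given as RPKM, the reads for every kilobase of a gene in 1e6 counted reads. Ribosome occupancy is the log2 ratio of polysome to total RPKM after 0.5 was added to each. Reads recovered from the RPKM steps came to 9.09 to 14.6 M (1e6) per polysome library and 37.7 to 56.0 M per total RNA library in HEK293A, and to 15.9 to 20.8 and 16.1 to 25 M in NIH3T3. LIN28B itself was at 3.6, 23.0, 33.4, 81.2 and 208 RPKM in HEK293A total RNA from X0 to X4, in the order of the labels. Its transcript was thus still read at X0 (799 reads), which does not show whether protein was made. Reads of mouse Lin28b in NIH3T3 total RNA numbered 1 at each of X0, X1 and X2, which cannot be ordered, then 9 at X3 and 42 at X4 (0.354 RPKM). On polysomes they numbered 1, 3, 4, 13 and 42 (0.488 RPKM at X4). Of 6 markers of HEK293 cells 4 were clearly present (NEFL, KRT8, KRT18 and VIM, all above 10 RPKM in the let-7a total RNA library), whereas PAX2 (0.045 RPKM) and NEFM (0.0513 RPKM) were near 0. Markers of blood, liver, endothelium and heart were at 0 to 0.00942 RPKM there. In NIH3T3 all 7 fibroblast markers were present and 5 of 6 markers of other cell types were listed at 0 in every total RNA library, with Cdh5 at up to 0.103 RPKM.

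In HEK293A the polysome share of these mRNAs moved apart as LIN28B rose, while their abundance did not pass the test. Occupancy rose with the LIN28B level for 10 of the 39 genes and fell for 18, at an adjusted p under 0.05 (limma, linear in level rank, Benjamini-Hochberg over 11125 genes). Over all genes tested 19.1% rose and 39% fell, so the members' shares of 25.6% and 46.2% were not far from those of the transcriptome. The 10 that rose were the scaffolds EEF1E1 and AIMP1, the cytosolic RARS, DARS, EPRS, NARS, LARS, FARSB and TARS, and the mitochondrial RARS2. The 18 that fell were 9 cytosolic enzymes (FARSA, VARS, MARS, AARS, QARS, YARS, CARS, WARS and SARS) and 9 mitochondrial enzymes (SARS2, LARS2, TARS2, MARS2, PARS2, AARS2, CARS2, EARS2 and VARS2). Slopes ran from -0.38 to 0.50 log2 units per level, with a median of -0.10 beside -0.07 over all genes. The median gene itself fell by 0.32 from X0 to X4. After each library was centred on its trimmed mean, 12 members rose and 14 fell, beside 28.3% and 27.6% of all genes. IARS and KARS joined those that rose, whereas CARS, SARS, VARS2 and WARS no longer passed. In bulk RNA, a change in the share of cells and a change within each cell cannot be told apart.

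The calls changed when an end of the series was left out. Without the X4 libraries no member and no gene at all passed the threshold (limma), with 9 members higher and 9 lower at an unadjusted p under 0.05, beside 12.3% and 28.1% of all genes. The slopes themselves did not vanish. For 9 of the 10 members that had risen the slope was larger without X4 (0.21 to 0.41 over the 10), among them RARS at 0.31 and DARS at 0.29, with adjusted p of 0.0842 to 0.22 (limma). For 16 of the 18 that had fallen it was smaller in size (-0.37 to -0.08 over the 18), although FARSA stayed at -0.37 and VARS at -0.32, with adjusted p of 0.0842 to 0.424 (limma). Without X0 no member rose and 9 fell (FARSA, VARS, MARS, AARS, QARS, SARS2, LARS2, TARS2 and MARS2), with 165 genes up and 1525 down over the transcriptome.

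**Figure D1:**
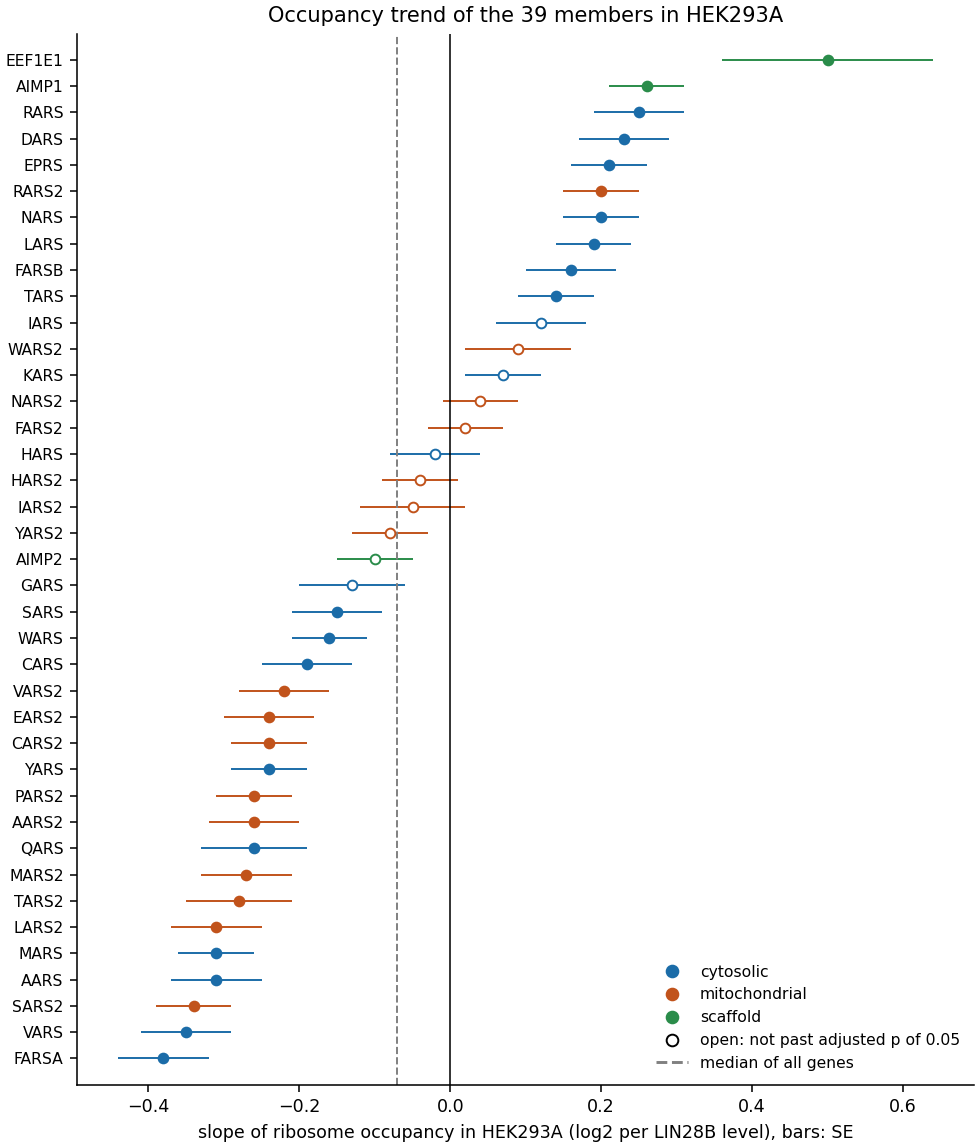
Slope of ribosome occupancy over the rank of the LIN28B level in HEK293A (log2 per level, points with SE) for the 39 genes, sorted. Filled points passed an adjusted p of 0.05, open ones did not, and the dashed line is the median of all genes at -0.07. EEF1E1 lies highest at 0.50 and FARSA lowest at -0.38, and mitochondrial enzymes fill much of the lower part.

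The scaffolds did not move as one. EEF1E1 (ENSG00000124802.7), also a partner of the elongation factor eEF1, had total RNA of 14.5, 15.0, 14.9, 13.5 and 14.5 RPKM from X0 to X4. Its polysome RNA was 8.44, 32.2, 11.8, 29.1 and 49.5 RPKM at the same levels. X1 and X3 were high and X0 and X2 low, so the rise was not steady, although X4 was the highest. Occupancy of EEF1E1 at X4 was 5.58 times that at X0, with a counting error of 0.12 log2 units, and its slope was 0.50 ± 0.14 (SE, adjusted p = 0.0139, limma). AIMP1 (ENSG00000164022.12), the scaffold that is also cleaved to a secreted cytokine, had polysome RNA of 36.4, 48.5, 48.3, 65.5 and 80.6 RPKM over total RNA of 27.4, 27.3, 27.0, 25.2 and 29.5 RPKM. Polysome RNA of AIMP1 was thus lowest at X0 and highest at X4 while total RNA stayed within 25.2 to 29.5 RPKM. The slope was 0.26 ± 0.05 (adjusted p = 0.00382, limma), a 2.04-fold rise in occupancy from X0 to X4. AIMP2 (ENSG00000106305.5), on which the complex is assembled, had polysome RNA of 151, 153, 134, 155 and 102 RPKM over total RNA of 70.0, 78.2, 79.1, 79.1 and 67.1 RPKM. Only X4 stood low, and the slope of -0.10 ± 0.05 did not pass (adjusted p = 0.122, limma).

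**Figure D2:**
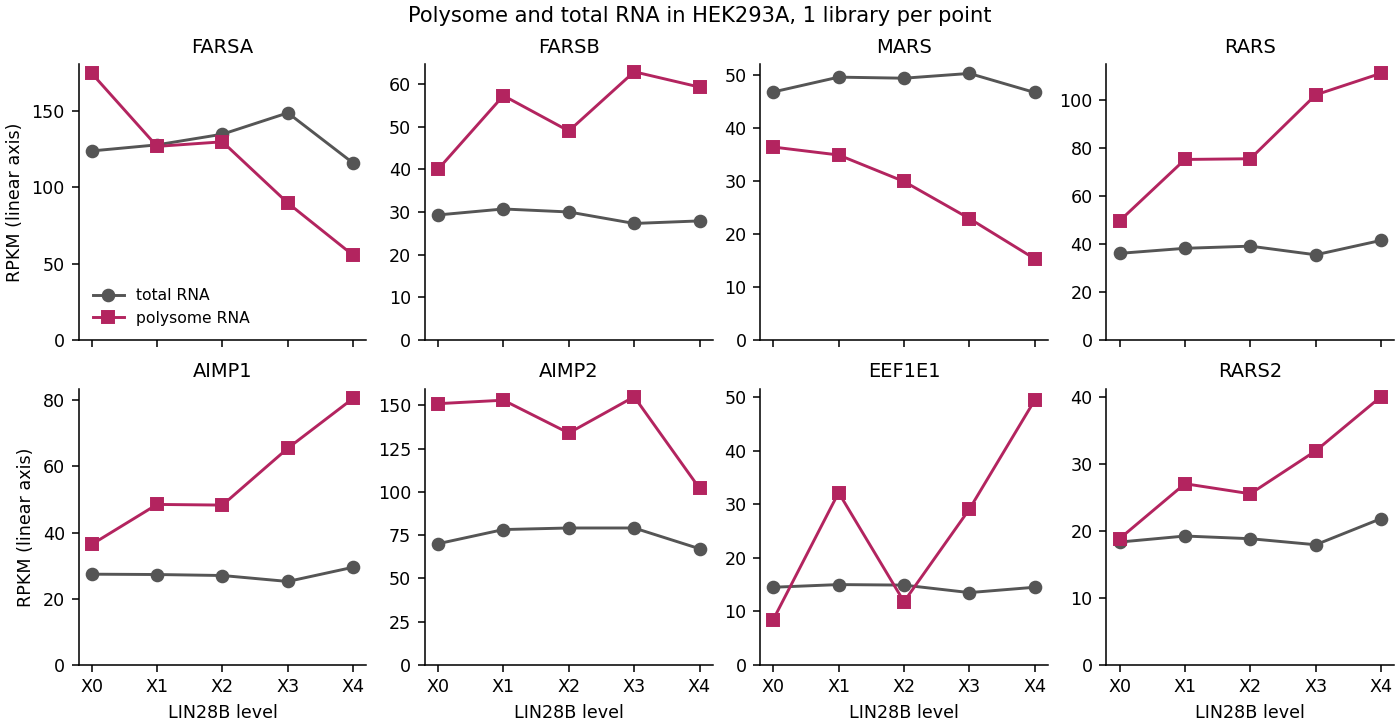
Polysome RNA (squares) and total RNA (circles) in RPKM on a linear axis, by LIN28B level, for 8 genes in HEK293A, with 1 library per point. Polysome RNA of FARSA falls from 175 to 55.5 RPKM and that of FARSB rises from 40.0 to 59.3, while total RNA of both is nearly level. EEF1E1 goes up and down between levels.

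Of the 8 enzymes of the complex, 4 rose (50%) and 2 fell (25%), beside 19.1% and 39% of all genes. RARS, which charges arginine tRNA and binds AIMP1, had polysome RNA of 49.5, 75.1, 75.4, 102 and 111 RPKM over total RNA of 36.0, 38.1, 39, 35.4 and 41.4 RPKM. DARS, the aspartate enzyme, had polysome RNA of 31.9, 52.7, 54.5, 68.9 and 74.8 RPKM over total RNA of 28, 31.6, 32.8, 30.9 and 34.4 RPKM. For both genes X0 was lowest and X4 highest in polysome RNA. Slopes were 0.25 ± 0.06 for RARS (adjusted p = 0.00551, limma) and 0.23 ± 0.06 for DARS (adjusted p = 0.0076, limma). EPRS (0.21 ± 0.05) and LARS (0.19 ± 0.05) rose too, at adjusted p of 0.00861 and 0.0133 (limma).

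The methionine and glutamine enzymes of the same complex went the other way. MARS had polysome RNA of 36.4, 34.9, 29.9, 22.9 and 15.3 RPKM, falling at every step, over total RNA of 46.8, 49.6, 49.4, 50.3 and 46.7 RPKM. QARS had polysome RNA of 33.3, 34.5, 24.3, 25.8 and 13.6 RPKM over total RNA of 50.0, 50.9, 49.0, 48.8 and 45.9 RPKM. X4 was lowest for both. MARS had a slope of -0.31 ± 0.05 (adjusted p = 0.00319, limma) and QARS one of -0.26 ± 0.07 (adjusted p = 0.00749, limma). IARS (0.12 ± 0.06) and KARS (0.07 ± 0.05), the isoleucine and lysine enzymes, did not pass at adjusted p of 0.0845 and 0.244 (limma). With centring they did, at 0.0181 and 0.0424. The median slope of the 8 enzymes was 0.16.

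The 2 subunits of phenylalanyl-tRNA synthetase went in opposite directions on polysomes. FARSA (ENSG00000179115.6) had polysome RNA of 175, 127, 130, 89.8 and 55.5 RPKM over total RNA of 124, 128, 135, 149 and 116 RPKM. FARSB (ENSG00000116120.8) had polysome RNA of 40.0, 57.3, 49.0, 62.9 and 59.3 RPKM over total RNA of 29.3, 30.7, 30.0, 27.3 and 27.9 RPKM. The ratio of FARSA to FARSB in total RNA was 4.21 at X0 and 4.15 at X4, with 5.47 at X3 as its highest. In polysome RNA the same ratio was 4.38, 2.21, 2.65, 1.43 and 0.935 from X0 to X4. Per length, FARSA thus went from the more abundant subunit on polysomes to about the level of FARSB. FARSA had the lowest slope of the 39, -0.38 ± 0.06 (adjusted p = 0.00319, limma), a 2.93-fold drop in occupancy from X0 to X4. FARSB rose by 0.16 ± 0.06 per level (adjusted p = 0.0371, limma), and did not pass when X0 (slope 0.11), X3 (0.13) or X4 (0.21) was left out, at adjusted p of 0.405, 0.102 and 0.11 (limma).

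Outside the complex 3 enzymes rose (NARS, FARSB and TARS), 7 fell and 2 (GARS and HARS) did not pass, with a median slope of -0.16 over these 12. Their shares were 25% and 58.3%, beside 19.1% and 39% of all genes. With centring 3 rose and 4 fell (25% and 33.3%), beside 28.3% and 27.6% of all genes. VARS, the valine enzyme, had polysome RNA of 7.1, 6.3, 6.09, 3.65 and 2.15 RPKM over total RNA of 10.5, 10.7, 11.5, 11.8 and 9.25 RPKM. AARS, the alanine enzyme, had polysome RNA of 42.9, 27.7, 26.3, 21.4 and 14.2 RPKM over total RNA of 58.4, 49.6, 47.3, 50.0 and 50.7 RPKM. YARS, the tyrosine enzyme, had polysome RNA of 33.4, 23.6, 23.4, 17.7 and 12.7 RPKM over total RNA of 42.5, 37.2, 36.4, 34.8 and 34.2 RPKM. All 3 were lower on polysomes at each higher level. Slopes were -0.35 ± 0.06 for VARS (adjusted p = 0.00319, limma), -0.31 ± 0.06 for AARS (adjusted p = 0.00334, limma) and -0.24 ± 0.05 for YARS (adjusted p = 0.00536, limma). HARS, for histidine, and its near-identical mitochondrial neighbour HARS2 had slopes of -0.02 ± 0.06 and -0.04 ± 0.05 (adjusted p of 0.804 and 0.505, limma). Whether reads shared by these 2 genes were split between them is not given. By structural class, 2 of 9 class I cytosolic enzymes rose and 6 fell, and 4 of 10 class II enzymes rose and 3 fell, with EPRS, which holds 1 domain of each class, left out. Beside the 19.1% and 39% of all genes, 2 of 9 rising and 3 of 10 falling were near the background.

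Mitochondrial enzymes were mostly lower on polysomes at high LIN28B. Of the 16, 9 fell (56.2%, beside 39% of all genes), 1 rose and 6 did not pass, and their median slope was -0.23. With centring 8 fell (50%) and 1 rose, beside 27.6% and 28.3% of all genes, at a median of -0.17. LARS2, the leucine enzyme, had polysome RNA of 15.4, 13.4, 13.1, 10.7 and 5.26 RPKM over total RNA of 21.7, 23.0, 23.3, 23.2 and 20.4 RPKM. PARS2, the proline enzyme, had polysome RNA of 4.58, 4.23, 3.44, 3.39 and 2.52 RPKM over total RNA of 6.93, 8.1, 8.28, 9.39 and 8.74 RPKM. Both fell at every level on polysomes, and neither total RNA passed the test. The slopes were -0.31 ± 0.06 for LARS2 (adjusted p = 0.00397, limma) and -0.26 ± 0.05 for PARS2 (adjusted p = 0.00341, limma). SARS2, the serine enzyme, had the lowest mitochondrial slope, -0.34 ± 0.05 (adjusted p = 0.00319, limma), from polysome RNA of 1.81, 1.4, 1.06, 0.606 and 0.368 RPKM. Few reads lie behind it, and its X4 minus X0 difference has a counting error of 0.42 log2 units. Occupancy of AARS2, CARS2, EARS2, MARS2 and TARS2 fell by 0.24 to 0.28 per level at adjusted p of 0.00455 to 0.00623 (limma). For MARS2 polysome RNA was 8.36, 11, 10.3, 8.78 and 4.93 RPKM, lower than at X0 only at X4. Its total RNA was 10.3, 14.2, 15.5, 14.9 and 14.5 RPKM, so higher total RNA entered its lower ratio at X1 to X4.

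RARS2, the arginine enzyme of mitochondria, was the exception and is named because it was the single one to rise. It had polysome RNA of 18.8, 27.0, 25.5, 31.9 and 40.0 RPKM over total RNA of 18.3, 19.2, 18.8, 17.9 and 21.8 RPKM. X0 was lowest and X4 highest on polysomes, as for its cytosolic counterpart RARS. Its slope was 0.20 ± 0.05 (adjusted p = 0.0116, limma).

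**Figure D3:**
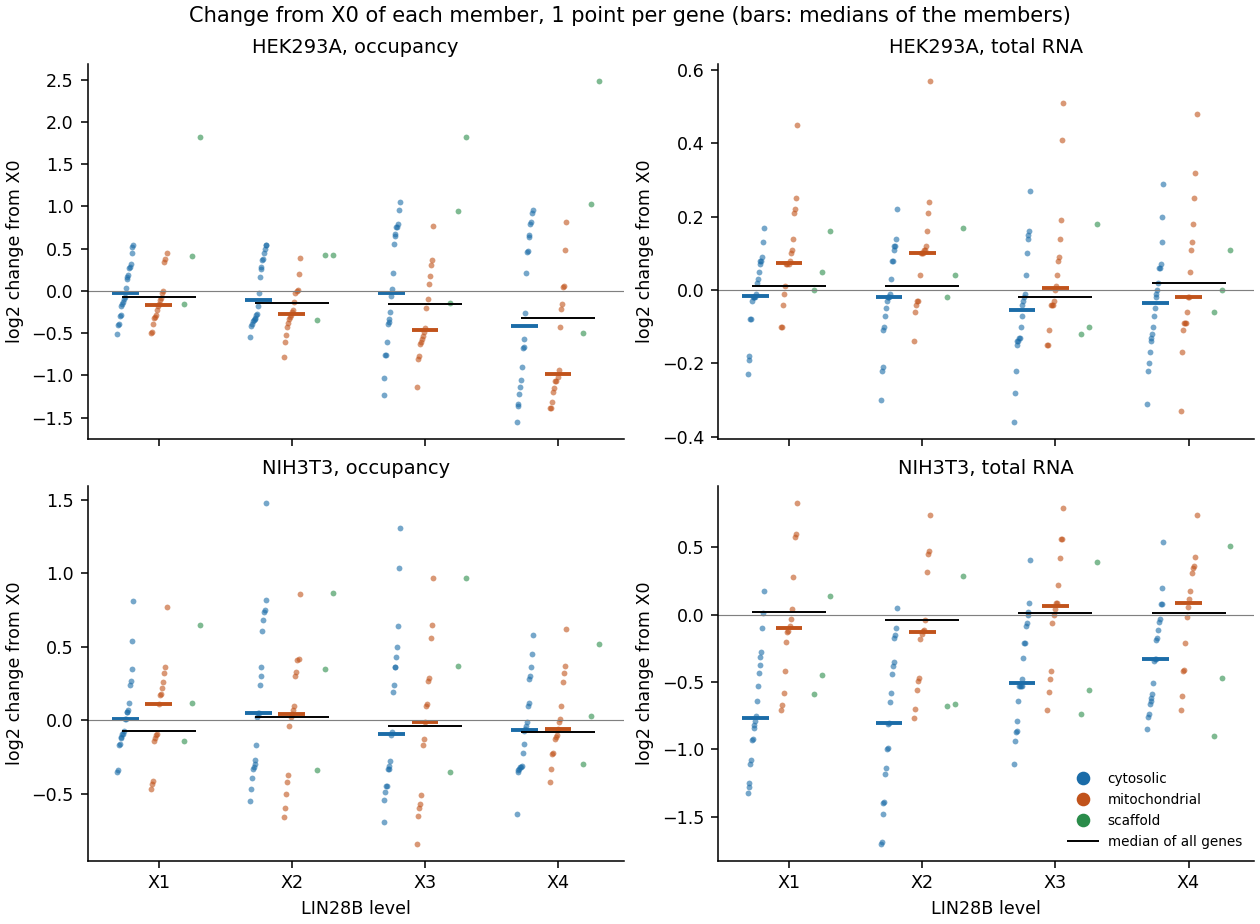
Log2 change from X0 at each LIN28B level for every member tested, in HEK293A (top) and NIH3T3 (bottom), for occupancy (left) and total RNA (right). Each point is 1 gene, coloured bars are medians of the cytosolic and mitochondrial enzymes and black bars the median of all genes. At X4 in HEK293A the mitochondrial median of occupancy is -0.98, and in NIH3T3 total RNA the cytosolic median is -0.77 at X1. Vertical scales differ between panels.

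Total RNA of the 39 genes in HEK293A gave no call, at slopes of -0.07 to 0.10 per level, beside 1.48% of 11342 genes that rose and 0.758% that fell. Without adjustment 3 members were higher and 3 lower at a p under 0.05 (limma), near the 10% and 8.01% of all genes, and edgeR on recovered reads also called none after adjustment. The smallest adjusted p among cytosolic enzymes were those of YARS (-0.07 ± 0.02, adjusted p = 0.122, limma), LARS (-0.06 ± 0.03, 0.24) and DARS (0.06 ± 0.02, 0.251). Among mitochondrial enzymes they were those of EARS2 (-0.07 ± 0.02, adjusted p = 0.148, limma), PARS2 (0.08 ± 0.03, 0.15) and MARS2 (0.10 ± 0.04, 0.221). Scaffolds had slopes of -0.01 to 0.01. Without the X4 library FARSA (0.09), PARS2 (0.13) and LARS (-0.11) passed, at adjusted p of 0.0459, 0.0379 and 0.0314 (limma). In that fit 323 of all 11342 genes rose and 221 fell, also more than with X4.

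In NIH3T3 no member and no gene passed for occupancy (0% of 10952 genes in either direction, limma). Of 38 members tested, none was higher and 1 lower at a p under 0.05 before adjustment, beside 2.68% and 2.36% of all genes, and edgeR called 0 as well. Mars2 lay under the filter of a mean of 1 RPKM. Slopes of occupancy were closest to the threshold for Aars (-0.16 ± 0.06), Mars (-0.11 ± 0.05) and Wars (-0.09 ± 0.05), each at an adjusted p of 0.639 (limma). Of the mitochondrial enzymes these were Rars2 (0.19 ± 0.10), Pars2 (-0.09 ± 0.06) and Tars2 (-0.09 ± 0.06), also at 0.639. Changes were not in step with the level: Aimp1 had occupancy of -0.65, 0.00, 0.22, 0.32 and -0.13 from X0 to X4, lowest at X0 and highest at X3. Its total RNA was 116, 76.9, 72.1, 69.4 and 61.9 RPKM and its polysome RNA 73.9, 76.7, 84.2, 86.8 and 56.5 RPKM. Eef1e1, which rose most in HEK293A, had polysome RNA of 43.2, 28.6, 34.7, 37.7 and 31.9 RPKM over total RNA of 23.4, 17.0, 14.6, 15.7 and 16.8 RPKM. X0 was highest in both fractions, and the occupancy slope was 0.06 ± 0.07 (adjusted p = 0.724, limma). Aimp2 had polysome RNA of 36.1, 43.2, 34.8, 37.1 and 42.0 RPKM over total RNA of 14.3, 15.8, 17.6, 18.9 and 20.7 RPKM, with a slope of -0.11 ± 0.06 (adjusted p = 0.639, limma). Farsa (-0.11 ± 0.06) and Farsb (0.02 ± 0.06) did not pass either, at 0.639 and 0.898, and their polysome ratio was 1.09, 1.47, 0.992, 1.01 and 1.29 from X0 to X4.

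For most cytosolic enzymes the X0 library of NIH3T3 held more mRNA than the later levels. From X0 to X1 total RNA was lower for 18 of the 20 cytosolic enzymes, with a median change of -0.77 log2 units, and for 9 of 14 mitochondrial enzymes, with a median of -0.10. The median of all 10348 genes was 0.02. Cytosolic medians at X2, X3 and X4 were -0.80, -0.50 and -0.33, all against the same X0 library, so they are not separate evidence. Eprs had total RNA of 4.86, 1.71, 1.15, 1.98 and 2.48 RPKM from X0 to X4. Nars had 21.3, 9.58, 7.28, 11.5 and 12.6 RPKM, and Gars had 75.4, 41.9, 42.7, 60.3 and 66.9 RPKM. These 3, named after their values were seen, were highest at X0 and lowest at X1 or X2. A list of 13 genes of amino acid supply and the stress response to its lack, measured beside them, had a median change of -0.47 at X1 and -0.06 at X4, and the part of that response in the synthetase values was not tested. At X1 2 of the 13 were above X0 and 11 below, and at X4 6 were above and 7 below. Of its 2 genes with the smallest p, Ddit3, a stress-induced transcription factor, was at 66.3 RPKM at X0 and 26.1 RPKM at X4, and Slc3a2, a subunit of amino acid transporters, at 78.5 and 93.1 RPKM. Neither trend passed (adjusted p of 0.477 and 0.506, limma). With 1 library at X0 the difference from X1 has no replicate check. No trend over the 5 levels passed for total RNA (0% of genes in either direction, limma). Before adjustment 3 of 37 members were higher and 2 lower at a p under 0.05, beside 7.33% and 3.64% of all genes, and edgeR called 0 after adjustment. Mars2 and Nars2 lay under the filter. Among enzymes the smallest adjusted p were those of Wars (0.13 ± 0.05, 0.421, limma), Sars (-0.10 ± 0.07, 0.581) and Farsa (0.06 ± 0.04, 0.604) in the cytosol, and of Sars2 (0.20 ± 0.06, 0.384), Fars2 (-0.13 ± 0.05, 0.43) and Wars2 (-0.14 ± 0.07, 0.5) in mitochondria. The scaffolds Aimp1 (-0.20 ± 0.05, 0.371, limma) and Aimp2 (0.13 ± 0.04, 0.384) went opposite ways, and Eef1e1 had a slope of -0.10 ± 0.06 (0.539).

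Set side by side, the 2 lines ordered these genes alike by change in occupancy, despite the lack of a call in NIH3T3. All 10 members that rose in HEK293A had higher occupancy at X3 than at X0 in NIH3T3, with a median change of 0.57, and 15 of the 17 tested that fell had lower occupancy, with a median of -0.45. Of all genes that rose or fell in HEK293A, 83.8% and 81.0% had the same sign at that level. Spearman's rho between the change from X0 to X4 in HEK293A and the change from X0 to X3 in NIH3T3 was 0.82 over 38 members and 0.65 over 7249 genes. Against X1, X2 and X4 of NIH3T3 the members' rho was 0.50, 0.83 and 0.66, beside 0.33, 0.61 and 0.45 over all genes. These correlations are across genes, which share the libraries of each line, and X3 was picked after the values were seen. QARS (-1.14 in HEK293A and 0.36 in NIH3T3), CARS2 (-1.02 and 0.10), YARS2, IARS2 and KARS were the 5 with opposite signs. The fractions behind the ratio differed between the lines. In HEK293A polysome RNA of all 10 members that rose was higher at X4 than at X0. In NIH3T3 total RNA of all 10 was lower at X3 than at X0. Polysome RNA there was lower as well for Eprs (6.66 RPKM at X0 and 6.3 at X3), Nars, Rars, Tars, Lars, Farsb and Eef1e1. It was higher for Dars (6.74 and 9.34 RPKM), Aimp1 and Rars2.

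**Figure D4:**
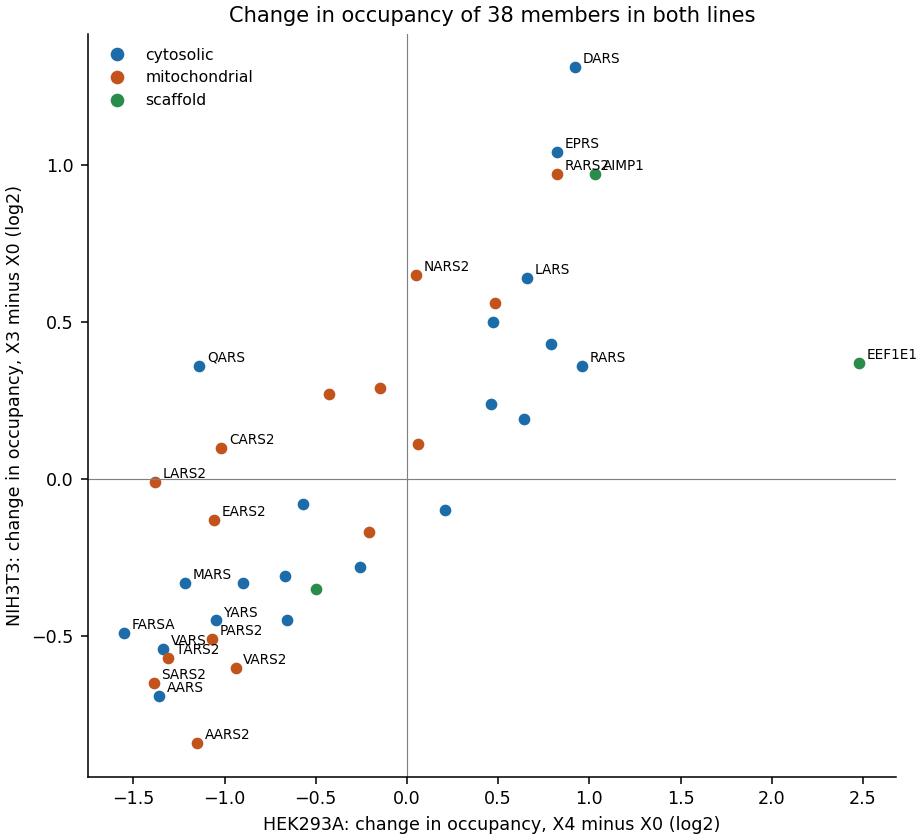
Change in occupancy from X0 to X4 in HEK293A (horizontal axis) against the change from X0 to X3 in NIH3T3 (vertical axis), log2 units, for 38 members, coloured by group. DARS, EPRS, RARS2 and AIMP1 lie at the upper right and AARS2, AARS, SARS2 and FARSA at the lower left. EEF1E1 lies far right at 2.48, with 0.37 in NIH3T3.

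A term for the difference in slope between the lines passed for no member and no gene of occupancy (0% of 7249 genes, limma). Before adjustment 9 of 38 members had a higher slope in NIH3T3 and 1 a lower one at a p under 0.05, beside 30.2% and 5.48% of all genes. With each library centred the balance turned, to 3 higher (QARS, CARS2 and LARS2) and 6 lower (FARSB, IARS, KARS, NARS, RARS and EEF1E1), beside 9.67% and 14.7% of all genes, and again none passed after adjustment. The median difference over all genes was 0.12 before centring and 0.03 after. Without centring the nearest to the threshold were LARS2 (NIH3T3 minus HEK293A, 0.34 ± 0.08, adjusted p = 0.0523), QARS (0.34 ± 0.09, 0.0533) and CARS2 (0.25 ± 0.07, 0.0533). With only genes at a mean of at least 5 RPKM in both lines, 24.6% of 4135 genes passed, among them 5 of 23 members: CARS2, FARSA, QARS, VARS and MARS, at differences of 0.20 to 0.34 and adjusted p of 0.0282 to 0.0455 (limma). For total RNA no member passed under either filter (4 higher and 1 lower of 37 before adjustment, beside 9.84% and 6.45% of all genes, and 5 higher and 2 lower with centring, beside 9.06% and 8.36%). The smallest adjusted p was that of AIMP1 (-0.21 ± 0.06, 0.17, limma), which had 0.128 at a mean of at least 5 RPKM and 0.154 with centring.

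Transfection of let-7a, the microRNA that LIN28B holds back, was compared with the untransfected X0 cells, with 1 library each and so no test. The mature strand, shown because its seed (bases 2 to 8, in capitals) sets which mRNAs it can pair with, is listed by RefSeq at chr9:94175962-94175983 (plus strand, GRCh38.p14).
hsa-let-7a-5p: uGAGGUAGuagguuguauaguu
Small RNA counts of the let-7a loci were 0 of 125904 in knockout cells, which allows up to 23.8 per 1e6, and 4 of 73083 with let-7a, or 54.7 per 1e6 (exact 95% interval 14.9 to 140). In AGO2-bound RNA they were 0 of 157595, which allows up to 19 per 1e6, and 5 of 140139, or 35.7 per 1e6 (11.6 to 83.3). At level X3, for which no transfected polysome or total RNA library was analysed, let-7a gave 1 of 86951 in total small RNA (11.5 per 1e6, 0.291 to 64.1) and 3 of 95887 in AGO2-bound RNA (31.3 per 1e6, 6.45 to 91.4), against 0 of 150841 and 0 of 172995 untransfected. In knockout cells as at X3, the intervals with let-7a thus reach below what a count of 0 allows. That limit was 23.8 and 19 per 1e6 in knockout cells and 19.9 and 17.3 per 1e6 at X3. Intervals and limits cover counting error only.

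With let-7a, total RNA was at least 1.5-fold lower for 10 of the 39 members, 8 of them among the 16 mitochondrial enzymes, and 1.5-fold higher for CARS alone. Of 11219 genes 7.98% were as much lower and 9.69% as much higher. The median difference was -0.49 log2 units over mitochondrial enzymes, -0.17 over cytosolic ones and 0.01 over all genes. WARS2, the tryptophan enzyme, was at 11.4 RPKM without and 5.22 RPKM with let-7a, a difference of -1.05 with a counting error of 0.06. MARS2, for methionine, was at 10.3 and 5.15 RPKM (-0.93), and LARS2 at 21.7 and 12.1 RPKM (-0.81). In the cytosol QARS was at 50.0 and 28.5 RPKM (-0.80) and DARS at 28 and 16.1 RPKM (-0.78). YARS2, for tyrosine, was at 21.5 and 12.6 RPKM (-0.75). The others were PARS2, NARS2, EARS2 and IARS2 at -0.72 to -0.62. CARS, the cysteine enzyme, was at 7.24 and 11.4 RPKM (0.62). LIN28B was at 3.6 and 1.41 RPKM in the same 2 libraries. The markers of the line differed between them as well: KRT8 was at 47 and 18.1 RPKM, KRT18 at 48.4 and 23.2, NEFL at 14.4 and 10.6 and VIM at 171 and 176, with total RNA of KRT8 at 45.4 to 54.9 RPKM from X1 to X4. The part of this difference between the libraries in the synthetase values was not tested.

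Occupancy with let-7a was past 1.5-fold for 6 members, 3 in each direction, beside 18.2% of 11022 genes higher and 6.54% lower. The median of all genes was 0.15. AARS2 had polysome RNA of 7.39 RPKM without and 14.8 RPKM with let-7a, a difference in occupancy of 0.85 with a counting error of 0.11. YARS was at 33.4 and 66.7 RPKM on polysomes (0.80), and TARS2, for threonine, at 15.3 and 18.3 RPKM (0.60). EPRS was lower, at 52.0 and 27.7 RPKM (-0.75), as were FARSA at 175 and 78.0 RPKM (-0.70) and KARS at 135 and 62.2 RPKM (-0.59). With each library centred 7 members were lower (EPRS, FARSA, KARS, TARS, NARS, RARS and DARS) and 2 higher (AARS2 and YARS), beside 12.2% and 10.1% of all genes. These values share the X0 libraries with the trends above. Beside them, the change in occupancy from X0 to X4 was -1.55 for FARSA, 0.82 for EPRS and 0.21 for KARS. It was -1.15 for AARS2, -1.05 for YARS and -1.31 for TARS2. Of these 6 members, FARSA alone thus had the same sign with let-7a as from X0 to X4.

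**Figure D5:**
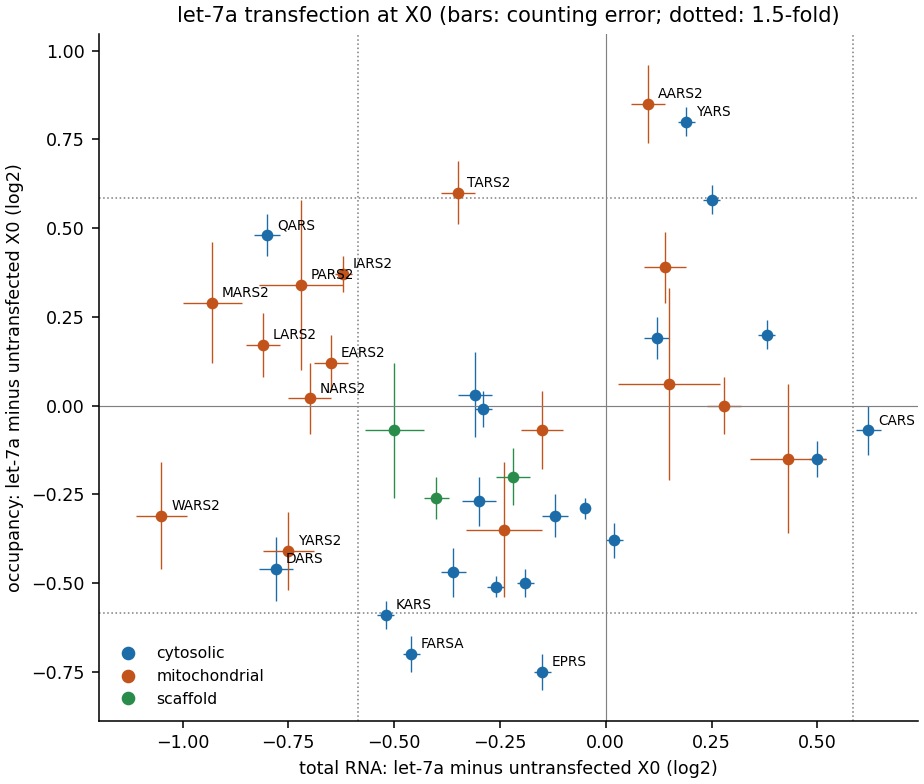
Difference between let-7a transfected and untransfected X0 cells for the 39 members, total RNA (horizontal axis) against occupancy (vertical axis), in log2 units with counting errors. Dotted lines mark 1.5-fold. A group of mitochondrial enzymes lies left of the left dotted line, down to WARS2 at -1.05, and 3 cytosolic enzymes lie below the lower one.

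What else the genes share was looked for in promoters and length. RefSeq promoters (250 bases before to 50 after the start, GRCh38.p14) were matched for 33 of the 39 by current symbol. Median GC content was 62.3% for members that rose, 62.0% for those that fell and 61.7% for those not called, whereas over all genes tested it was 62.3%, 68.3% and 65.3%. Spearman's rho between promoter GC and the slope was 0.05 over 33 members and -0.23 over 8719 genes, as a description across genes of the same libraries. Median relative gene length was 0.799 for members that rose, 1.07 for those that fell and 0.819 for those not called. Over all genes tested it was 0.992, 1 and 1. Its rho with the slope was -0.21 over 39 members and 0.02 over 11125 genes, likewise a description. The amino acid response motif, through which the stress factor ATF4 can raise transcription, was searched as TGATGNAA on both strands. It was found in 7 of 33 promoters (21.2%), beside 3.67% of all 27305 promoters, and in 6 of 16 cytosolic and 1 of 14 mitochondrial ones. In 5 cytosolic enzymes the matches are the same 8 bases, shown in capitals on the gene's strand with the upstream bases around them in lower case where they lie before the start.
AARS, chr16:70289675-70289704, minus strand: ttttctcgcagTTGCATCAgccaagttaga
IARS, chr9:92293698-92293721, minus strand: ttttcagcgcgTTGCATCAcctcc
CARS, chr11:3057418-3057425, minus strand: TTGCATCA
MARS, chr12:57488064-57488071, plus strand: TTGCATCA
TARS, chr5:33440967-33440974, plus strand: TTGCATCA
Motifs began 187 bases before the start in AARS, 13 in IARS, 4 in MARS and 2 in CARS, and 2 bases past it in TARS. The matches in NARS and YARS2 are on the other strand and are not printed. Among these 7 genes occupancy in HEK293A rose for NARS and TARS, fell for AARS, CARS and MARS and did not pass for IARS and YARS2. A match is a description of letters and not of binding.

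Other genes of the tRNA pathway were read from lists of fixed membership, beside the 19.1% of all genes that rose and 39% that fell. Of 12 genes for further aminoacylation steps 4 rose and 1 fell in HEK293A occupancy, at a median slope of -0.02, with EEFSEC, the selenocysteine elongation factor, at -0.35 ± 0.06 (adjusted p = 0.00319, limma) and PSTK, a kinase of selenocysteine tRNA, at 0.17 ± 0.05 (adjusted p = 0.0103, limma). Of 21 tRNA processing genes 6 rose and 5 fell (median 0.06), and ELAC2, which cuts tRNA 3′ ends, fell by 0.35 ± 0.06 per level. Of 36 tRNA modification genes 8 rose (22.2%) and 13 fell (36.1%), near the background (median -0.01), and WDR4, a partner in guanosine methylation, fell by 0.30 ± 0.05. Of 6 factors that deliver charged tRNA 1 rose and 3 fell (median -0.16), among them TUFM, the mitochondrial factor, at -0.35 ± 0.06. Of 13 genes of amino acid supply and stress 2 rose and 8 fell (median -0.29), among them PHGDH, the first enzyme of serine synthesis, at -0.38 ± 0.06 and the amino acid transporter SLC7A5 at -0.37 ± 0.06. ELAC2, WDR4, TUFM, PHGDH and SLC7A5 each had an adjusted p of 0.00319 (limma).

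In HEK293A total RNA these lists held 2 rises and 2 falls, beside 1.48% and 0.758% of all 11342 genes. The translation factor EEF1A2 (0.33 ± 0.02, adjusted p = 0.00087, limma) and the stress pseudokinase TRIB3 (0.15 ± 0.03, 0.0374) rose, while asparagine synthetase, ASNS (-0.19 ± 0.03, 0.0207), and the cystine transporter SLC7A11 (-0.20 ± 0.04, 0.0347) fell. With centring 0 genes of amino acid supply and stress rose, so TRIB3 no longer passed, and 2 fell. Beside them 0.97% of all genes rose and 0.564% fell. In NIH3T3 none of their genes passed in either readout, as for all genes.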

How the data were processed

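RPKM values were deposited by the authors for polysome and total RNA, 1 column per level and fraction. Every gene of the HEK293A table has 1 RPKM or more in each total RNA library. Raw counts per gene were deposited for 8 small RNA libraries and were used only to check the let-7a transfection. The submitters' processing notes name hg19, mm10, STAR and cutadapt. Counting tool, strand handling and annotation version were not given in these sources.

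Reads were recovered from the steps of low RPKM values within 0.02 of a whole number (11342 of 11342 HEK293A genes, 18053 of 18053 NIH3T3 genes above 0 in enough libraries). Genes at a mean of at least 1 RPKM entered limma 3.58.1 (R 4.3.3) with a pseudocount of 0.5, fitted over all genes, with a two-sided adjusted p under 0.05. An alternative used edgeR 4.0.16 on recovered reads. Scripts were tested on simulated data. Members and lists were chosen with earlier results of these data known. Named by rule were the 3 scaffolds, up to 8 enzymes per trend and compartment by smallest p (3 where none passed), FARSA with FARSB, HARS with HARS2, up to 2 genes per other list, and let-7a members past 1.5-fold. Binding-site libraries were not analysed here.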

Additional observations from a re-analysis of the deposited data

How the results depend on the processing

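Counts of members called in HEK293A occupancy ranged from 0 to 10 up and from 0 to 18 down when 1 level was left out: without X4 none passed, and without X0 there were 0 up and 9 down. Other settings (pseudocount 0.1, filters, centring, quantile normalization, prior variance by expression, edgeR, X3 and X4 against the rest) gave 7 to 13 up and 14 to 18 down. Calls over all genes moved with the setting as well. The 13 members up and 15 down with edgeR stood beside 29.6% and 28.8% of 11125 genes. The 7 up and 15 down for X3 and X4 against the rest stood beside 1638 and 3720 of 11125 genes. In HEK293A total RNA, leaving out X4 gave 2 up and 1 down, beside 323 up and 221 down of all 11342 genes, with 0 members otherwise. The occupancy slope difference between lines passed for 0 members, and for 5 at a mean of at least 5 RPKM. With a 2-fold limit let-7a left 1 member lower and 0 higher in total RNA and 0 either way in occupancy, and centring gave 7 lower in occupancy. 1 column per level and fraction limits all of this.

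Only members that had not been called changed sign. In HEK293A occupancy HARS went from -0.02 to 0.04 (centred), 0.03 (quantile) and 0.06 (edgeR), and from -0.06 to 0.04 with 1 level left out; HARS2 went to 0.02, 0.02 and 0.03, and IARS2 to 0.02 (centred), 0.03 (edgeR) and 0.03 (X3 and X4 against the rest). In HEK293A total RNA, with 1 level left out AIMP1 ranged from -0.04 to 0.03, AIMP2 from -0.07 to 0.05, and HARS from -0.01 to 0.01. In NIH3T3 the occupancy slope of Aimp1 ranged from -0.03 (without X0) to 0.31 (without X4), and that of Farsb -0.01 without X0 and -0.02 for X3 and X4 against the rest. In NIH3T3 total RNA Farsb ranged from -0.17 without X4 to 0.09 without X0, and went to 0.04 for X3 and X4 against the rest, as did Hars (0.04), and Sars ranged from -0.15 to 0.05 (without X0). The causes were not tested. No paired analysis was possible because each line has 1 column per level and fraction and the labels carry no replicate numbers.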
